A study of Mus musculus with 24 samples.

Results

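The 9 genes described here encode enzymes of the tricarboxylic acid cycle. They were chosen by symbol (Cs, Idh3a, Idh3b, Idh3g, Ogdh, Suclg1, Sucla2, Fh1 and Mdh2) and stand among 52089 symbols of the deposited table. Where a symbol had several entries, the RefSeq messenger RNA entry with the highest mean level was used. Transcript levels were measured in primary mouse adipocytes of the strain 129SvEv, grown from the stromal vascular cells of inguinal white fat and differentiated with rosiglitazone, which drives white fat cells toward the heat-producing brite state. Cells of all 4 groups were transfected during differentiation with LNA gapmers at 50 nM, antisense strands with locked ends that lead RNase H to cut a matching RNA. KD cells got a gapmer against Ctcflos (1300015D01Rik), a long noncoding RNA with several transcripts, of which the gapmer was designed on transcript 1, and NC cells a nontargeting one. Both were harvested at 24 h and at 72 h, which gave 4 groups of 6 libraries. The study's methods describe young male mice as the source of primary cells, and its legends call the libraries biological replicates without naming the animals behind each, so the p-values measure the spread between these samples.

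The cycle oxidises acetyl units in the mitochondrial matrix and passes the electrons, as NADH and reduced flavin, to the respiratory chain. Brown and brite adipocytes are rich in mitochondria and burn fuel for heat through the uncoupling protein UCP1, which depends on that supply of electrons. Citrate synthase opens the cycle, isocitrate dehydrogenase and oxoglutarate dehydrogenase release carbon dioxide, succinate-CoA ligase makes a nucleoside triphosphate, and fumarase and malate dehydrogenase regenerate oxaloacetate.

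Recovered library totals lay between 1391832 reads (KD 24 h replicate 6) and 5926375 (NC 72 h replicate 6), with a median of 4009998. In the latter library only 15.5% of low read numbers were odd, against 55.0% to 56.6% in the others, so its total may overstate its depth. The reference entry of Ctcflos held 12 reads over the KD 24 h libraries against 60 in NC 24 h, and 17 in KD 72 h against 101 in NC 72 h. At 72 h its difference was -2.49 ± 0.48 (log2, SE; adjusted p = 0.0023), and at 24 h it was too low to be tested. The targeted transcript 1 has an entry of its own (ENSMUST00000144256), with 8 reads in KD 24 h against 12 in NC 24 h and 3 in KD 72 h against 41 in NC 72 h. These reads were too few for a test, and at 24 h the groups overlapped, with deposited RPKM of up to 0.961 in KD and 0.792 in NC. Replicates 2 and 3 of NC 72 h differed by less than the sampling noise (squared difference 0.341 times that expected from counting, against 2.004 for the next closest pair). They were counted as 1 sample, their mean, so that NC 72 h had n = 5. With the group means taken off, the libraries were split into 2 clusters, one larger (16 libraries) and one smaller (8, that is 2 per group). The group means were removed first, so the split could not follow the groups. It was drawn from the expression values of these same libraries, with the 9 enzymes left out, and is no independent record of a batch. The smaller cluster held KD 24 h replicates 3 and 4, NC 24 h replicates 5 and 6, KD 72 h replicates 5 and 6, and NC 72 h replicates 4 and 5. Values within each cluster are given for the enzymes called, and the plot of knockdown differences shows them for all 9.

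At 72 h, 7 of the 9 enzymes fell in KD cells. Sucla2 and Idh3a fell the furthest, by 48.4% and 44.8%, followed by Ogdh, Cs, Idh3g, Fh1 and Suclg1, whereas Idh3b and Mdh2 did not pass the test. At 24 h, Idh3a and Sucla2 were the 2 enzymes that fell, and the other 7 lay lower without passing. Of all 54447 entries tested at 72 h, 12.0% were called lower, and of 52006 at 24 h, 11.6%, while 10.3% and 11.1% were called higher. The median difference of the 9 enzymes was -0.48 at 72 h and -0.27 at 24 h (log2), against 0.01 and -0.01 over all entries tested. All 9 enzymes passed the filter on low values, with a median of 447 reads per library for Ogdh to 5028 for Idh3a.

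**Figure D1:**
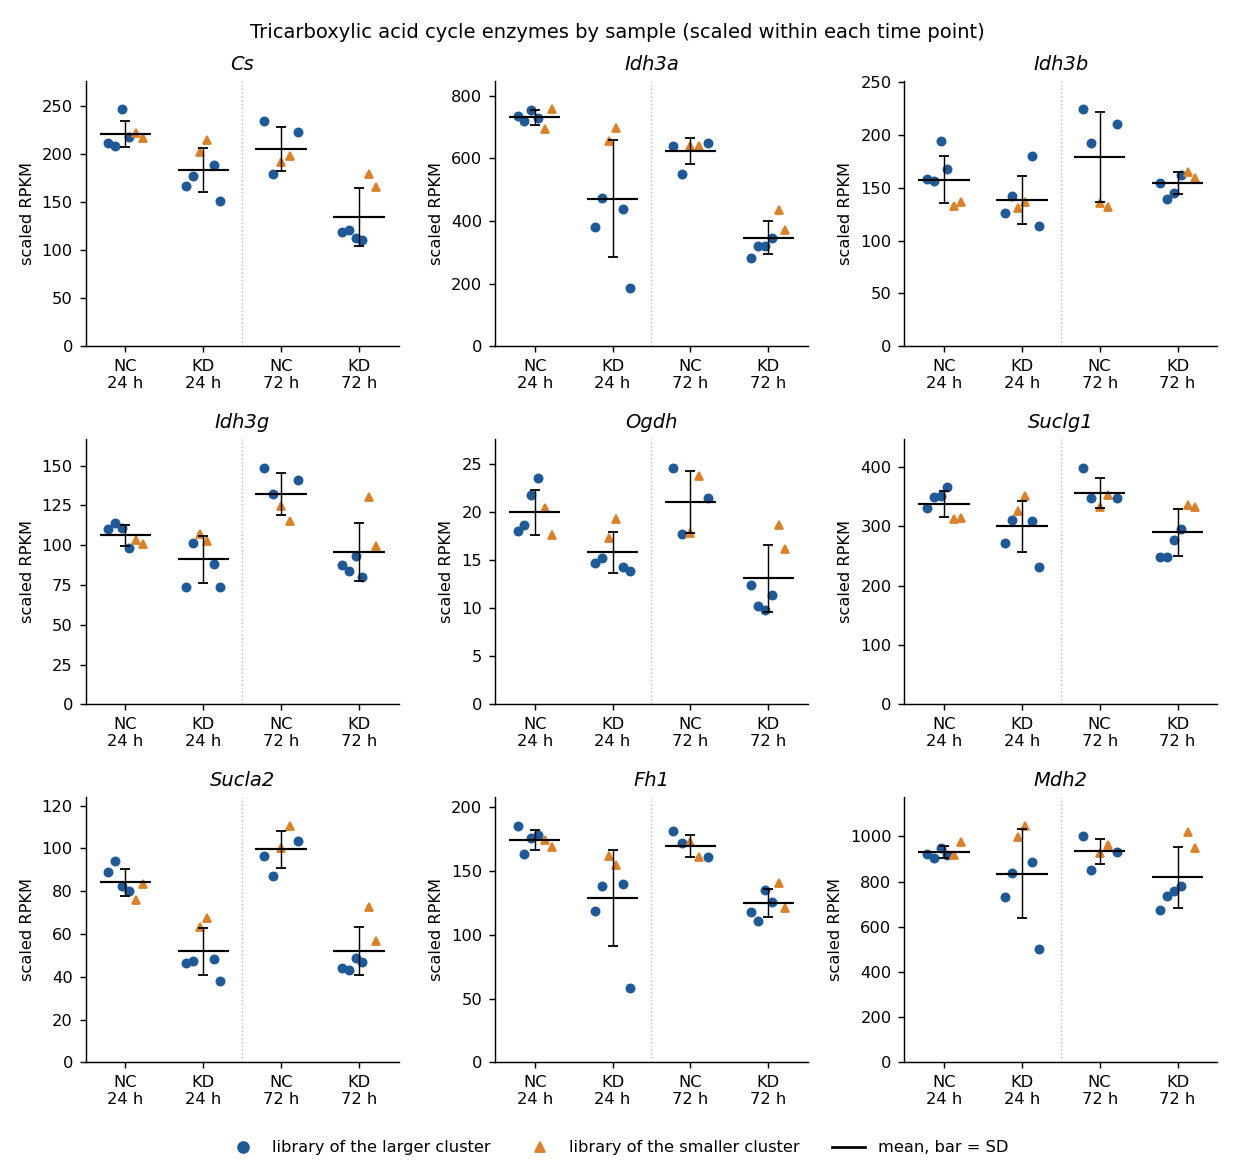
Scaled RPKM of each enzyme (vertical axes, from 0) in every sample of the 4 groups, scaled within each time point, with group means and SD; circles mark libraries of the larger cluster and triangles those of the smaller one. For Sucla2 every KD sample lies below every NC sample at both times, and in KD 72 h the triangles lie above the circles for all enzymes but Idh3b and Fh1.

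Levels are given as scaled RPKM, reads mapped to a transcript relative to its length and to the library total, brought to a common scale within each time point. Sums of cell type markers were instead scaled over all 4 groups, and control values compared between the times over the NC samples. Values of the same samples therefore differ slightly between these scales. Reads came from the 3′ ends of transcripts, so RPKM, which divides by the whole length, orders the genes only roughly. In NC 24 h, Mdh2 was the highest at 931.2 ± 26.3 scaled RPKM (SD, n = 6), followed by Idh3a at 731.3 ± 23.6, Suclg1 at 337.3 ± 22.0 and Cs at 220.9 ± 13.6. Fh1 (174.0 ± 7.64) and Idh3b (157.6 ± 22.3) were neighbours whose samples overlapped. Idh3g, Sucla2 and Ogdh closed the order at 106.2 ± 6.5, 84.2 ± 6.37 and 20 ± 2.32, and apart from Fh1 and Idh3b no neighbours overlapped.

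Sequence just upstream of the start site is shown for 2 of the pairs whose ratio differed between KD and NC, Sucla2 with Suclg1 and Cs with Mdh2. The windows cover 250 bases before the RefSeq start on build GRCm38.p6, 5′ to 3′, and capitals mark matches, on either strand, to GGGCGG (bound by SP factors) or CCAAT (bound by NF-Y). The match at the end of the Mdh2 line runs on past the start site:
Sucla2, chr14:73552536-73552785, plus strand: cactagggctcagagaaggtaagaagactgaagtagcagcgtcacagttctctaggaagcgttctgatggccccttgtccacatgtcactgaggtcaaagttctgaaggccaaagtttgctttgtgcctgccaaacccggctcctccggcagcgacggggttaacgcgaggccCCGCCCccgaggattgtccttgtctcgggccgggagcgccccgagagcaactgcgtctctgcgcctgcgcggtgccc
Suclg1, chr6:73248255-73248504, plus strand: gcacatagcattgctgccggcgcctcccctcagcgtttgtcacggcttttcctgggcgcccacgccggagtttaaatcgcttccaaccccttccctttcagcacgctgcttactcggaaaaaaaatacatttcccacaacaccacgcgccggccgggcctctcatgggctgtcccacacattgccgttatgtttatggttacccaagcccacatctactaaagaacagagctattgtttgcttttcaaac
Cs, chr10:128337477-128337726, plus strand: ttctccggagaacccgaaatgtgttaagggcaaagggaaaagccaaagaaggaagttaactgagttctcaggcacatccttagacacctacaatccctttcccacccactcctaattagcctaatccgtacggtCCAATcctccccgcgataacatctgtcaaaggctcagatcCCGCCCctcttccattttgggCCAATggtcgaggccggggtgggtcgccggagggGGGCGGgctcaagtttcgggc
Mdh2, chr5:135778399-135778648, plus strand: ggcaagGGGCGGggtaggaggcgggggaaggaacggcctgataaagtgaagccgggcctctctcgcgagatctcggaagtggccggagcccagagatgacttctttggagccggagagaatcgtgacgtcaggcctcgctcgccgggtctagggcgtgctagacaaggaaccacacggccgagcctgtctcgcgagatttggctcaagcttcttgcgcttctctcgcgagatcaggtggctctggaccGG

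Motifs were searched in windows that ran a further 50 bases past the start, for the 8 enzymes with a RefSeq window. Idh3a had none and was not searched. GGGCGG stood in windows of Cs, Fh1, Mdh2, Ogdh and Sucla2, and 35.7% of all 32851 promoters of the table hold it. CCAAT stood in windows of Cs, Fh1, Idh3b and Ogdh (37.4% of all promoters). CCGGAAG, read by GABPA and other ETS factors, stood in Idh3b and Idh3g (8.9%), and AAGATGG, read by YY1, in Idh3g (6.3%). TGCGCA, part of the NRF1 site, stood in Mdh2 and Ogdh (7.8%), and the longer NRF1 sequence GCATGCGC in Ogdh alone (2.7%), where the 2 motifs overlap. AAGGTCA, read by the oestrogen-related receptors, stood in Ogdh alone (4.7%), while its longer form TCAAGGTCA (0.4%) and TATAAA (13.6%) stood in none. The Suclg1 window held none of the motifs searched. Ogdh entered with several start sites. These matches describe the letters of the windows, and no binding was measured.

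Citrate synthase, encoded by Cs, joins acetyl-CoA to oxaloacetate and is a common measure of mitochondrial mass. At 72 h its scaled RPKM in KD ran from 110.6 to 179.7 with a median of 119.9, and the NC samples held 235.2, 180.0 (mean of replicates 2 and 3), 191.9, 198.8 and 223.4. Every KD sample lay below every NC sample, with the top KD sample just under the lowest NC sample. Cs fell by 0.63 ± 0.14 (log2, SE; limma, adjusted p = 0.0053). The 2 KD samples of the smaller cluster, at 179.7 and 166.5, lay above the other 4. Within the larger cluster the difference was -0.87 (adjusted p = 0.00014) and within the smaller one -0.16 (adjusted p = 0.44). In the 24 h samples, KD ran from 151.6 to 215.0 (median 183.0) and NC from 209.2 to 246.9 (median 217.7), so that 5 of 6 KD samples lay below every NC sample. The difference was -0.27, with a 95% interval from -0.49 to -0.06, and did not pass (adjusted p = 0.059). It was -0.39 in the larger cluster (adjusted p = 0.031) and -0.09 in the smaller (adjusted p = 0.58).

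NAD-dependent isocitrate dehydrogenase is built from a catalytic subunit, Idh3a, and the subunits Idh3b and Idh3g. The catalytic subunit fell at both times, and the other subunits moved less. At 72 h, Idh3a ran from 282.8 to 436.4 scaled RPKM in KD (median 334.0), against 638.8, 549.4 (mean of replicates 2 and 3), 639.5, 639.1 and 648.5 in NC. The groups were far apart, and Idh3a fell by 0.86 ± 0.11 (log2, SE; adjusted p = 0.0001). It was called within either cluster, at -0.95 (adjusted p = 0.00004) in the larger and -0.65 (adjusted p = 0.0087) in the smaller. At 24 h, KD ran from 184.5 to 696.6 (median 456.6) and NC from 693.6 to 756.1 (median 732.2). The KD samples were widely spread and the NC samples tight, with 5 of 6 KD samples below every NC sample. Idh3a fell by 0.75 ± 0.24 (adjusted p = 0.037). The lowest value belonged to replicate 6, the library of least depth, without which the difference was -0.51 (adjusted p = 0.012). The 24 h difference was -1.09 in the larger cluster (adjusted p = 0.012) and -0.11 in the smaller (adjusted p = 0.41), where the KD samples held 655.5 and 696.6. The call at 24 h was lost when any one of 9 other samples was left out, with adjusted p up to 0.074, while the difference stayed between -0.89 and -0.51.

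Idh3b did not pass at either time. At 72 h, KD ran from 139.7 to 165.3 scaled RPKM (median 156.9), and NC held 224.1, 192.2, 135.2, 132.0 and 210.7. The NC samples fell apart by cluster, with 135.2 and 132.0 in the smaller and the 3 others in the larger. The difference was -0.18, with a 95% interval from -0.48 to 0.12 (adjusted p = 0.38). Within the larger cluster it was -0.48 (adjusted p = 0.0027) and within the smaller 0.29 (adjusted p = 0.15). At 24 h, KD (113.5 to 179.6, median 133.5) and NC (132.6 to 194.0, median 157.6) overlapped, at a difference of -0.19 with an interval from -0.46 to 0.07. Idh3g ran from 80 to 130.1 in KD at 72 h (median 90.3), against 148.8, 132.2, 124.6, 115.4 and 140.9 in NC. One KD sample of the smaller cluster lay inside the NC range and 5 lay below it. Idh3g fell by 0.48 ± 0.12 (adjusted p = 0.013), with -0.71 in the larger cluster (adjusted p = 0.00024) and -0.06 in the smaller (adjusted p = 0.85). At 24 h its KD samples (73.5 to 107.0, median 94.7) and NC samples (98.0 to 114.2, median 106.6) overlapped, at -0.24 with an interval from -0.48 to 0.01.

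Ogdh encodes the first component of the oxoglutarate dehydrogenase complex, which makes succinyl-CoA. It was the lowest of the 9 enzymes. At 72 h, KD ran from 9.75 to 18.6 scaled RPKM (median 11.9), and NC held 24.6, 17.7, 17.8, 23.7 and 21.4. The KD samples of the larger cluster lay at or below 12.4, and 1 KD sample of the smaller cluster reached into the NC range. Ogdh fell by 0.71 ± 0.18 (adjusted p = 0.012), with -0.95 in the larger cluster (adjusted p = 0.0017) and -0.23 in the smaller (adjusted p = 0.54). After 24 h, KD ran from 13.9 to 19.3 (median 15.0) and NC from 17.6 to 23.5 (median 19.5), a difference of -0.34 with an interval from -0.61 to -0.07 that did not pass (adjusted p = 0.07), with -0.50 in the larger cluster (adjusted p = 0.034) and -0.06 in the smaller (adjusted p = 0.87).

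Succinate-CoA ligase pairs the subunit Suclg1 with a nucleotide-specific partner, and Sucla2 is the partner that makes ATP. At 24 h the scaled RPKM of Sucla2 ran from 38.2 to 67.3 in KD (median 47.9) and from 76.0 to 93.9 in NC (median 83.0). At 72 h it ran from 43.0 to 72.8 in KD (median 47.8), against 96.5, 87.3, 100, 110.6 and 103.5 in NC. The groups did not overlap at either time. Sucla2 fell by 0.72 ± 0.13 at 24 h (adjusted p = 0.0025) and by 0.95 ± 0.13 at 72 h (adjusted p = 0.00024), and it was called with any one sample left out. Within the larger cluster its difference was -1.07 at 72 h (adjusted p = 3.4e-05) and -0.95 at 24 h (adjusted p = 0.00089). Within the smaller cluster it was -0.69 at 72 h (adjusted p = 0.025) and -0.30 at 24 h (adjusted p = 0.16). Suclg1 ran from 247.9 to 335.2 in KD at 72 h (median 286.6), against 399.0, 347.1, 333.2, 352.3 and 348.5 in NC. The KD samples of the smaller cluster, 335.2 and 332.9, stood at the edge of the NC range. Suclg1 fell by 0.31 ± 0.10 (adjusted p = 0.044), and the call was lost without any one of 8 samples. The difference was -0.45 in the larger cluster (adjusted p = 0.0043) and -0.02 in the smaller (adjusted p = 0.93). After 24 h, KD (231.2 to 350.7, median 310.5) and NC (311.9 to 366.1, median 340.3) overlapped, at -0.18 with an interval from -0.40 to 0.05.

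Fumarase, encoded by Fh1, turns fumarate into malate. At 72 h it ran from 110.6 to 140.2 scaled RPKM in KD (median 123.3), against 181.4, 171.7, 172.3, 160.7 and 161.1 in NC. The groups did not overlap, and Fh1 fell by 0.44 ± 0.09 (adjusted p = 0.0023), with -0.50 in the larger cluster (adjusted p = 0.0028) and -0.34 in the smaller (adjusted p = 0.14). At 24 h, KD ran from 58.0 to 161.9 (median 138.7) and NC from 163.2 to 185.2 (median 175.0), again without overlap, yet the difference of -0.51 (interval from -0.93 to -0.09) did not pass (adjusted p = 0.075). The lowest value, 58.0, belonged to KD 24 h replicate 6, and without that library the difference was -0.30 and was called (adjusted p = 0.021). Malate dehydrogenase, encoded by Mdh2, closes the cycle. At 72 h it ran from 674.2 to 1021 in KD (median 770.1), against 1001, 850.0, 927.1, 960.9 and 931.9 in NC. The KD samples of the larger cluster lay below the NC range and those of the smaller cluster, 1021 and 947.5, inside or above it. The difference was -0.20 with an interval from -0.44 to 0.03 (adjusted p = 0.21). It was -0.33 within the larger cluster (adjusted p = 0.012) and 0.07 within the smaller (adjusted p = 0.71). In the 24 h samples, KD (503.7 to 1047, median 861.9) and NC (903.6 to 975.6, median 921.6) overlapped, at -0.20 with an interval from -0.51 to 0.11.

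Every KD sample lay below every NC sample for 4 enzymes at 72 h (Cs, Idh3a, Sucla2 and Fh1) and for 2 at 24 h (Sucla2 and Fh1), where 7.72% and 6.41% of all entries tested did so. On the deposited scale, compared after the data were seen, this held for 0 of the 9 enzymes at 72 h (3.06% of entries) and for 4 at 24 h (Cs, Idh3a, Sucla2 and Fh1; 5.86% of entries). Other entries of the same genes share reads with those above, so they give no independent count. All 10 tested entries of Idh3a and all 7 of Sucla2 were called lower at both times, and none of the 2 of Idh3b or the 4 of Mdh2 was called at either.

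**Figure D2:**
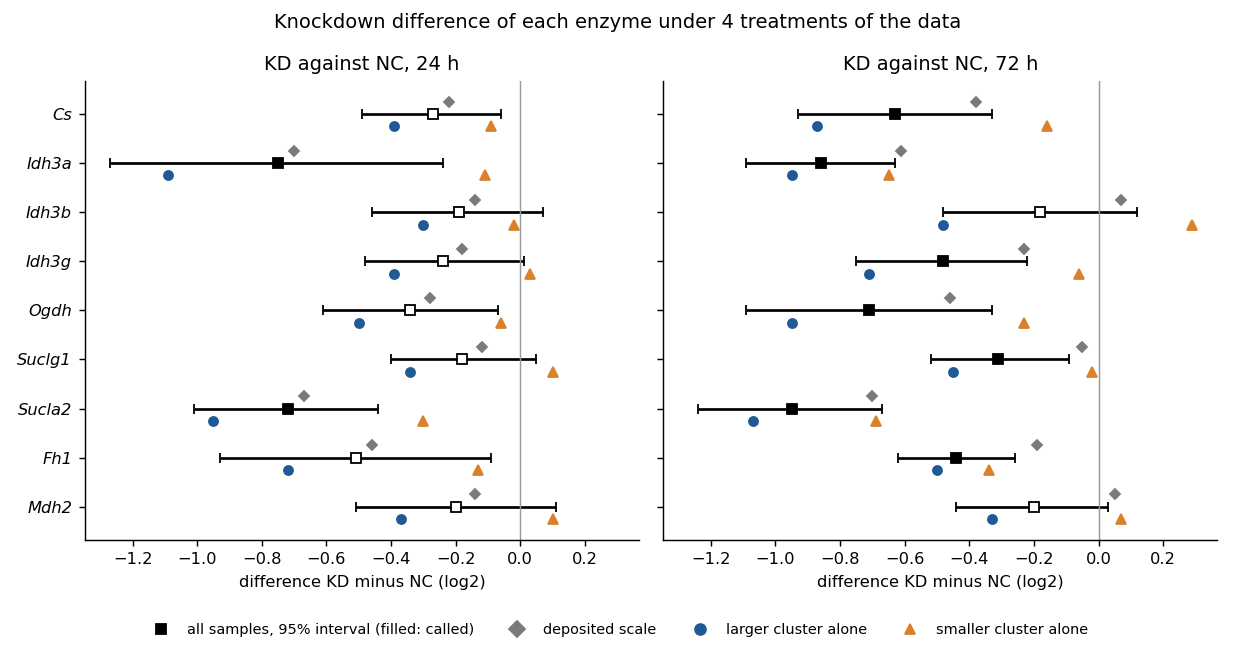
Difference KD minus NC of each enzyme on the log2 scale (horizontal axes) at 24 h and 72 h; squares with 95% intervals stand for all samples and are filled where called, diamonds for the deposited scale, and circles and triangles for the larger and smaller cluster alone. Circles lie left of the squares for all 9 enzymes at both times, and at 72 h the diamonds and triangles of Idh3b and Mdh2 lie right of 0.

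The size of these differences rests on the scale. At 72 h the median of all entries was 0.25 on the deposited scale, 0.24 above that of the scaled values, and 80.9% of calls were then higher in KD, against 46.2%. On the deposited scale only Idh3a (-0.61, adjusted p = 0.0028) and Sucla2 (-0.70, adjusted p = 0.0038) were called at 72 h, and Idh3b and Mdh2 turned to 0.07 and 0.05. At 24 h all 9 enzymes lay lower on both scales.

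The difference between the times was tested as an interaction over all groups, and none of the 9 enzymes was called (limma, 0 at an unadjusted p under 0.05), where 0.2% of 59413 entries were. The estimates ran from -0.36 for Ogdh (interval from -0.81 to 0.09) to 0.08 for Fh1 (interval from -0.41 to 0.57). Changes between the times within these unadjusted intervals were not excluded. In control cells alone, Idh3a fell between 24 h and 72 h, from 711.5 ± 24.1 (n = 6) to 572.3 ± 38.4 (n = 5), by 0.32 ± 0.06 (log2, SE; adjusted p = 0.0041), without overlap of the samples. It was the only one of the 9 called, where 4.49% of entries were called lower. This comparison shares its control samples with the knockdown comparisons.

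Ratios between enzymes within a library do not depend on the scale between libraries. For 9 pairs at both times, 18 comparisons in all, KD and NC were compared by two-sided exact permutation tests with Benjamini-Hochberg adjustment, whose smallest p is 0.0022. In all, 10 of the 18 passed. The pairs share genes and each enters at both times, so the 18 are not independent. How often ratios of other gene pairs pass was not tested. Within succinate-CoA ligase, the log2 ratio of Sucla2 to Suclg1 was -2.55 ± 0.15 in KD and -2.0 ± 0.12 in NC at 24 h (SD, n = 6 each; exact p = 0.0022, adjusted p = 0.0078). At 72 h it was -2.49 ± 0.15 (n = 6) against -1.84 ± 0.17 (n = 5; exact p = 0.0022, adjusted p = 0.0078). No KD sample reached an NC sample at either time, and the shift of -0.54 and -0.65 had the same sign within either cluster, as had all 10 that passed. The clusters are parts of the samples tested, so the shared sign is no independent check.

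Within isocitrate dehydrogenase, Idh3a lost ground to both partners at 72 h. Its log2 ratio to Idh3b was 1.15 ± 0.17 in KD (n = 6) and 1.83 ± 0.39 in NC (n = 5; exact p = 0.0022, adjusted p = 0.0078), and that to Idh3g was 1.86 ± 0.16 against 2.24 ± 0.17 (exact p = 0.0087, adjusted p = 0.019). At 24 h the ratio to Idh3g was lower by 0.52 (exact p = 0.0087, adjusted p = 0.019; -0.71 and -0.14 within the larger and smaller cluster). That to Idh3b differed by -0.56 without passing (exact p = 0.056, adjusted p = 0.072). In both, the lowest KD value at 24 h belonged to replicate 6, at 1.32 and 0.70, which enlarges these differences too. The ratio of Idh3b to Idh3g passed at neither time (exact p = 0.75 and 0.063, adjusted p = 0.75 and 0.075). Cs lost ground to Mdh2 at 72 h, by 0.43 (exact p = 0.0022, adjusted p = 0.0078; -0.54 and -0.24 within the larger and smaller cluster), but differed by -0.08 at 24 h (exact p = 0.46, adjusted p = 0.49). Ogdh lost to Suclg1 at 72 h by 0.40 (exact p = 0.017, adjusted p = 0.031). At 24 h, Mdh2 gained on Fh1 by 0.31 (exact p = 0.0022, adjusted p = 0.0078), Cs gained on Idh3a by 0.48 (exact p = 0.017, adjusted p = 0.031; 0.71 and 0.03 within the clusters), and Fh1 lost to Suclg1 by 0.33 (exact p = 0.0065, adjusted p = 0.019). In each of these ratios the KD value furthest from NC belonged to replicate 6, the library of least depth (3.12, -0.28 and -1.99), which enlarges the differences given. Without that library 13 of the 18 comparisons passed.

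**Figure D3:**
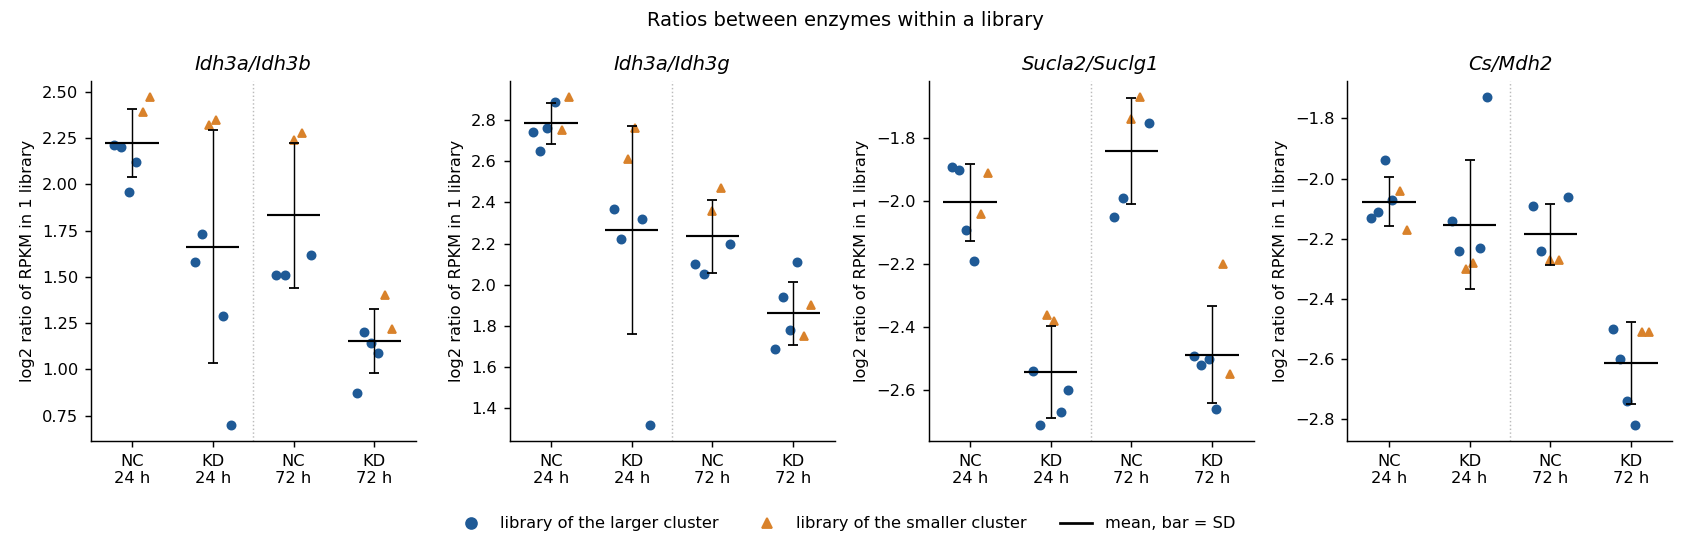
Log2 ratio of the RPKM of 2 enzymes within 1 library (vertical axes) by group for 4 of the 9 pairs, with mean and SD; circles and triangles mark the larger and smaller cluster. For Sucla2/Suclg1 the KD samples lie below the NC samples at both times, and for Cs/Mdh2 they do so at 72 h.

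Of 9 further enzymes and subunits of the cycle, 8 could be tested (Dhtkd1 was too low), and 5 fell at 72 h and 2 at 24 h, with none higher and a median of -0.56 and -0.36. For this and the following lists, the shares over all entries tested were 12.0% lower and 10.3% higher at 72 h. At 24 h they were 11.6% and 11.1%. Dld, the lipoamide dehydrogenase shared by the oxoacid dehydrogenase complexes, fell by 0.67 ± 0.10 at 72 h (adjusted p = 0.00032) and by 0.40 ± 0.12 at 24 h (adjusted p = 0.032). Of the 4 subunits of succinate dehydrogenase, 2 fell at 72 h, the anchor Sdhd by 0.58 ± 0.10 (adjusted p = 0.00073) and the iron-sulphur subunit Sdhb by 0.54 ± 0.10 (adjusted p = 0.0021), while at 24 h they stood at -0.42 and -0.34 without passing. The flavoprotein Sdha (-0.10, adjusted p = 0.55) and the anchor Sdhc (-0.12, adjusted p = 0.32) did not pass at 72 h and stood at 0.15 and 0.13 on the deposited scale.

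Of 13 tested genes that govern the entry of pyruvate into the cycle, 9 fell at 72 h and 4 at 24 h, with none higher and medians of -0.70 and -0.16. The list also holds the kinases that switch pyruvate dehydrogenase off, of which Pdk1 (-0.70, adjusted p = 0.028) and Pdk2 (-0.76, adjusted p = 0.0055) are among the 9, and Pdk2 (-0.78, adjusted p = 0.018) among the 4. The other kinases, Pdk3 and Pdk4, stood at 0.08 each at 72 h and at 0.12 and 0.42 at 24 h, not called. Pdk1 stood at 0.16 at 24 h, not called either. Mpc1, a subunit of the mitochondrial pyruvate carrier, fell by 1.43 ± 0.13 at 72 h (adjusted p = 0.000013) and by 0.61 ± 0.16 at 24 h. Pdp2, a phosphatase that activates pyruvate dehydrogenase, fell by 0.95 ± 0.11 at 72 h, with -0.76 at 24 h not called. The pyruvate dehydrogenase subunits Pdhx and Pdhb fell by 0.54 ± 0.09 and 0.76 ± 0.14 at 72 h, and at 24 h Pdhb fell by 0.37 ± 0.11 and Pdhx stood at -0.36 without passing.

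Isoenzymes outside the cycle and enzymes that exchange its intermediates were mixed. At 72 h, 4 of 13 fell and 1 rose, and at 24 h 3 fell and 1 rose, with medians of -0.01 and -0.22. The cytosolic enzymes Idh1, Me1, Mdh1 and Acly, which serve NADPH supply, malate exchange and fatty acid synthesis, fell at 72 h by 0.84 ± 0.11, 0.97 ± 0.14, 0.60 ± 0.11 and 1.25 ± 0.23. At 24 h, Idh1 fell by 0.70 ± 0.20 and Mdh1 by 0.35 ± 0.10, while Me1 (0.01) and Acly (-0.22) did not pass. The mitochondrial aspartate transaminase Got2 rose at both times, by 0.69 ± 0.17 at 72 h and 0.62 ± 0.13 at 24 h, and was named after its values were seen.

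Of 15 genes of general mitochondrial content, 2 fell and 1 rose at 72 h and 3 fell at 24 h, with medians of -0.09 and -0.12. At 72 h these counts lay near the shares of all entries called, 12.0% lower and 10.3% higher. Cycs, the electron carrier cytochrome c, fell by 0.98 ± 0.11 at 72 h and 0.45 ± 0.15 at 24 h, and the outer membrane channel Vdac2 by 0.31 ± 0.09 and 0.52 ± 0.18. The matrix protease Lonp1 rose by 0.36 ± 0.12 at 72 h (0.45 at 24 h, not called), and the cristae protein Immt stood at -0.36 and -0.22, called at neither. Of 9 regulators of mitochondrial genes tested, 3 fell at 72 h, and at 24 h 3 fell and 3 rose. The nuclear receptor Ppara fell by 1.42 ± 0.25 at 72 h and 0.80 ± 0.18 at 24 h, and the ETS factor Gabpa by 0.65 ± 0.18 and 0.80 ± 0.19. The coactivator Ppargc1a fell by 1.27 ± 0.23 at 72 h, with -0.73 at 24 h not called. Pprc1, a relative of Ppargc1a, rose by 1.21 ± 0.27 at 24 h and stood at 0.61 at 72 h (adjusted p = 0.063). On the deposited scale at 72 h, 11 of the 58 tested genes of these 5 lists changed sign, none of them called, and Vdac2 shrank to -0.05. All 19 genes called at 24 h and all 25 at 72 h kept their sign within both clusters, with a median size of 0.80 and 0.91 in the larger cluster and 0.36 and 0.43 in the smaller. The clusters are parts of the samples on which these genes were called, so the kept sign is no independent check.

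**Figure D4:**
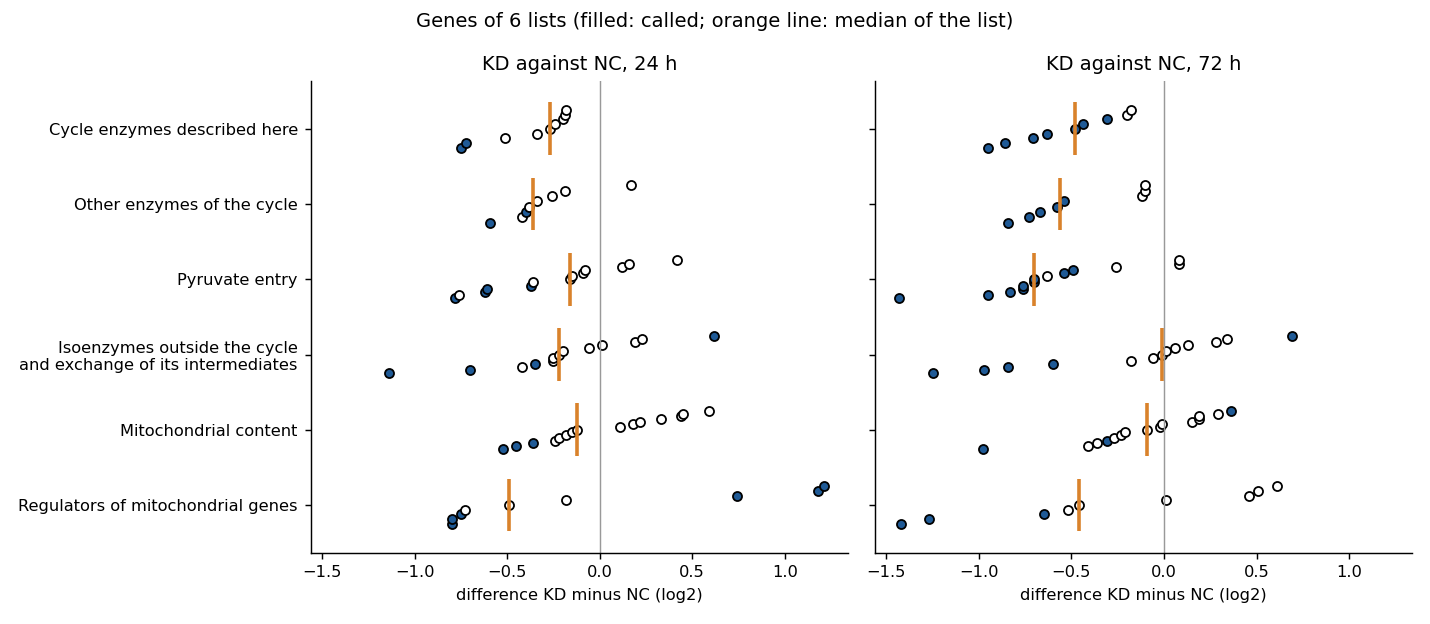
Difference KD minus NC on the log2 scale (horizontal axes) of the tested genes of 6 lists at 24 h and 72 h; each point is 1 gene, filled where called, and the upright line is the median of its list. At 72 h the median is -0.48 for the 9 enzymes, -0.56 for the other enzymes of the cycle and -0.09 for mitochondrial content.

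The genes whose levels ran most like the mean profile of the 9 enzymes over the 23 samples, out of 12702, were Sdhd and Uqcrc2 (r = 0.97 each), then Acat1, Etfdh and Ndufs7 (r = 0.96 each). Sdhd and Uqcrc2 belong to respiratory complexes, as does Ndufs7, and Acat1 and Etfdh serve the mitochondrial breakdown of ketone bodies, amino acids and fatty acids. With the group means taken off, r was 0.90 to 0.93. The samples share groups, clusters and scaling factors, so these values are a description. Among the 9 enzymes, r with their own mean ran from 0.59 for Idh3b to 0.96 for Suclg1.

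Like the enzymes, the summed levels of fat cell markers lay lower in KD than in NC, with overlap for the brite markers at 24 h. Over time in NC cells they differed. The brite sum was higher at 72 h than at 24 h and the adipocyte sum lower, while the median difference of the 9 enzymes was -0.01 (log2). The summed level of 8 adipocyte markers ran from 26251 to 35803 scaled RPKM in KD 72 h and from 36600 to 48291 in NC 72 h, and from 37183 to 49931 in KD 24 h against 50484 to 52959 in NC 24 h. Most of that sum was Fabp4, with a mean of 26036 in KD 72 h and 38826 in NC 72 h when scaled within that time point. That of 5 brite markers ran from 378.1 to 727.5 in KD 72 h against 1258 to 2120 in NC 72 h, and from 325.3 to 475.9 against 457.0 to 887.7 at 24 h. All 5 brite markers and 4 of 8 adipocyte markers fell at 72 h, and 4 of each at 24 h. At 72 h, Pparg (-0.18), Plin1 (-0.45), Lipe (-0.41) and Cidec (0.11) did not pass. In these bulk samples, fewer fat cells and less RNA per cell cannot be told apart, and the part of either in the enzyme differences was not tested. The summed levels of 8 preadipocyte and fibroblast markers overlapped between groups, at 1057 to 1256 in KD 72 h and 727.0 to 1771 in NC 72 h, and 659.4 to 1273 in KD 24 h against 786.1 to 1385 in NC 24 h. Of 6 tested at 72 h, Pdgfrb rose by 0.59 ± 0.14 and Col3a1 fell by 0.68 ± 0.20, while none of 7 was called at 24 h. Cd34 was also called higher at 72 h (2.02 ± 0.37), but its levels were near the floor. They were 0.427 ± 0.275 scaled RPKM in NC 72 h and 1.88 ± 0.608 in KD 72 h (SD). Among NC samples alone Cd34 was too low to be tested, so it entered the 72 h test through the KD samples, where it is high.

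Markers of other cells were low, with smooth muscle as the exception. The 6 macrophage and leukocyte markers summed to at most 29.8 scaled RPKM in any sample, with Ptprc at a mean of 0.043, and in KD and NC they ran from 5.55 to 10.5 and 7.8 to 29.8 at 72 h. Of these 6, Csf1r rose at both times (1.22 ± 0.27 at 24 h, 1.23 ± 0.25 at 72 h) and Lyz2 fell by 3.68 ± 0.59 at 72 h. The 4 endothelial and 4 epithelial markers summed to at most 1.59 and 1.23. The 4 skeletal muscle markers ran from 0.976 to 7.72 in KD 72 h and 4.38 to 20.6 in NC 72 h, with Myod1 at 0 in all 24 libraries and Acta1 called lower at 72 h. The 3 smooth muscle markers, mostly Acta2, ran from 181.0 to 252.4 in KD 72 h against 238.4 to 754.0 in NC 72 h, and from 134.5 to 642.7 against 360.1 to 1120 at 24 h, with none called. Their part in the enzyme differences was not tested.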

How the data were processed

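Libraries were made by bulk RNA barcoding and sequencing, with barcoded oligo-dT primers, so reads came from transcript 3′ ends. The authors aligned them to the NCBI reference sequence database with the Genomatix suite and deposited RPKM for 168326 RefSeq, Ensembl and GenBank entries, which share reads. Version, genome build, strand handling and filters are not given in the sources used here. 0 columns were left unused. Read numbers were recovered from the steps of the RPKM: 94.2% to 94.8% of low values per library were whole multiples (within 0.05 reads) at GENCODE M21 lengths. Recovered lengths equalled these for 90.8% of 21086 Ensembl entries.

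The filter kept entries that reached the equivalent of 10 reads in at least the number of samples of the smaller group, and 15 over all. Trimmed means of log ratios (30% and 5% trimmed) set the scale of each comparison. Kept entries were tested on log2(RPKM + 0.1) with limma 3.58.1 (R 4.3.3, trend, two-sided) and Benjamini-Hochberg adjustment over all entries. An adjusted p under 0.05 made a call. Fold changes on this scale understate those of low genes. The scripts were tested on simulated data. Named were all 9 enzymes, the 4 genes per list with the lowest p at 72 h, and the 5 most like the mean profile, apart from 1 gene that is not reported here. The members and lists were chosen with earlier results of these data known. Alternatives covered pseudocount, filter, entries, scaling, recovered reads (voom), replicate block, clusters and left-out samples. Replicate numbers did not pair the samples (mean correlation of deviations -0.10 at 24 h). Depth statements cover counting error only.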

Additional observations from a re-analysis of the deposited data

Results flagged for a closer look

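Of 36 groups of enzyme values examined for a sample far from the others, 2 held one, and about 1 in 20 is flagged by chance. Cs in NC 24 h replicate 3 stood at 246.9 scaled RPKM, above the next sample at 222.5 and the lowest at 209.2. Idh3a in the averaged NC 72 h replicates 2 and 3 stood at 549.4, below the next sample at 638.8 and the highest at 648.5. No enzyme's knockdown difference was called as different between 24 h and 72 h.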

How the results depend on the processing

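Of the 9 enzymes, 2 were called at 24 h, and the count was 1 with no filter on low values, 4 in the larger cluster alone and 0 in the smaller cluster alone, and ran from 1 to 4 with 1 sample left out. Without KD 24 h replicate 3 or 4 it was 4, and without any of the other samples but KD 24 h replicate 6 it was 1, Idh3a being the call lost. The number of all entries called lower at 24 h changed as well. It was 6048 of 52006 in the main test and 4471 of 120943 with no filter. In the larger cluster alone it was 6830 of 52838, and in the smaller 841 of 52997. At 72 h, 7 were called, and the count was 2 on the deposited scale and 2 in the smaller cluster alone, 9 in the larger cluster alone, and ran from 6 to 7 with 1 sample left out. Of all entries, 6545 of 54447 were called lower in the main test at 72 h and 3102 of 54447 on the deposited scale. In the smaller cluster alone 3838 of 56098 were, and in the larger 7076 of 55120. For NC 72 h against NC 24 h, 1 was called, and 2 with the cluster as a term, in the larger cluster alone and with NC 72 h replicates 2 and 3 kept apart, 0 in the smaller cluster alone, and 1 to 2 with 1 sample left out, the 2 without NC 72 h replicate 5. The interaction count stayed at 0 in all settings run. For the ratios, 10 passed, 9 to 13 with 1 sample left out, and 0 in the larger cluster alone, where the smallest exact p is 0.029. The smaller cluster alone was not run for the ratios, since 2 against 2 samples cannot pass. Where not named above, the cause was not tested.

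Signs turned in the smaller cluster alone, for Idh3g (0.03), Suclg1 (0.10) and Mdh2 (0.10) at 24 h, and for Idh3b (0.29) and Mdh2 (0.07) at 72 h, and on the deposited scale at 72 h for Idh3b (0.07) and Mdh2 (0.05). With the replicate number as a block, 2 were called at 24 h and 5 at 72 h, Idh3g (-0.48, adjusted p = 0.057) and Suclg1 (-0.29, adjusted p = 0.14) being lost. For NC 72 h against NC 24 h the block left 1 call, and over all entries it took the calls from 11822 to 8745 at 24 h and from 12159 to 8214 at 72 h. The numbers did not pair the samples, with mean correlations of deviations of -0.10 at 24 h and 0.00 at 72 h. Of the differences of single enzymes under all alternatives, 344 kept direction and side of the threshold, 33 lost the call, 12 gained it and 7 changed sign. Depth was lowest in KD 24 h replicate 6, with 125 reads of Sucla2 at the least in any library.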
